A study of Mus musculus with 68 samples.

Results

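The comparison described here sets the inner cell mass (ICM) against the trophectoderm (TE) of fertilized mouse blastocysts that had been injected with a morpholino against Mcrs1 (Mcrs1 MO), and asks which differences between the lineages were still measured when Mcrs1 was reduced. Its members were chosen by their labels and are 4 of the 68 libraries of the series, with 2 labelled ICM and 2 labelled TE. A morpholino is a synthetic antisense oligonucleotide that binds an RNA and blocks its use. The series follows gene expression in cumulus cells, in embryos made from them by somatic cell nuclear transfer (SCNT), and in fertilized embryos. The references are 4 libraries from fertilized embryos given a morpholino against Max (Max MO) and 4 from the control, again with 2 ICM and 2 TE libraries each. The titles call these control libraries control and their treatment untreated, while the injection protocol names a random control morpholino, which the study lists for these libraries at a higher concentration than Max MO or Mcrs1 MO, so that dose and target cannot be told apart in comparisons with the control. Morpholinos were injected into zygotes, 10 blastomeres went into each reaction, ICM and TE were parted by micromanipulation, and the libraries were made by Smart-seq2, which copies polyadenylated RNA from few cells. The study's methods give C57BL/6j parents for fertilized embryos, while the labels name only the BDF1 oocyte donors of the SCNT embryos. A knockdown of this kind lowers a gene product in all cells of the embryo, so neither lineage is an unaffected internal reference.

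In the blastocyst the TE is the outer epithelium that later forms the placenta, and it is specified by Cdx2, Eomes, Gata3 and Tead4 under the control of the Hippo pathway. The ICM holds the epiblast, which carries the pluripotency factors Nanog, Pou5f1 and Sox2 and secretes Fgf4, and the primitive endoderm, which responds to that Fgf4, expresses Gata6, Sox17 and Gata4, and lays down a basement membrane of laminins and type IV collagen. Mcrs1 encodes a subunit of the NSL histone acetyltransferase complex and is found with the INO80 chromatin remodelling complex. In bulk RNA from a few cells, fewer cells of a type and less RNA per cell cannot be told apart.

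The values are TPM, an abundance per transcript length scaled to a fixed library total, as deposited and summed per gene symbol, and differences are given as ICM minus TE on the log2(TPM + 1) scale, which understates the change of low genes. The 4 Mcrs1 MO libraries held between 10198 and 10693 genes at 1 TPM or above, with 2.09 to 2.91 aligned gigabases estimated from coverage, against 1.00 to 3.19 over all 12 libraries. A library that stands apart bears on every comparison with the control. ICM control replicate 1 carried the TE genes Cdx2 at 57.7 TPM and Krt18 at 10274 TPM, levels like those of the TE control libraries, whereas ICM control replicate 2 held 0.222 and 108 TPM. Over the 29 genes of a TE epithelium list the summed TPM was 20423 in ICM control replicate 1 and 3011 in replicate 2, beside 26734 and 23761 in the TE control libraries. The main counts and the lineage list medians that rest on the control are therefore also given without ICM control replicate 1. As replicate 1 was singled out by its TE genes, what its removal does to TE genes is a description and supports nothing. The same list summed to 16332 and 11917 TPM in the Mcrs1 MO ICM libraries and to 19832 and 20043 in their TE libraries. With Max MO the sums were 4924 and 8456 in the ICM and 25261 and 26146 in the TE. TE cells carried into the Mcrs1 MO ICM libraries and TE genes expressed by ICM cells cannot be told apart here. The control libraries also held 7809 to 13013 TPM of the ribosomal RNA precursor Rn45s, where the Max MO and Mcrs1 MO libraries held 168 to 630. Within the Mcrs1 MO arm Rn45s was at 422 and 622 TPM in the ICM and 270 and 168 in the TE, and its part in the differences between lineages was not tested. Among cell types a blastocyst dissection could carry along, 15 cumulus and granulosa genes summed to at most 6.12 TPM in the Mcrs1 MO libraries, and 13 oocyte genes to between 23.6 and 37.3 TPM.

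Mcrs1 itself, on chromosome 15 of mm10 from 99242817 to 99251961 on the minus strand, was reduced in both lineages. The ICM libraries held 86.8 and 73.4 TPM with Mcrs1 MO against 253 and 310 in the control, a log2 difference of -1.80 (standard error 0.21, limma adjusted p = 0.00333). In a fit of the 4 ICM libraries of these arms alone, this difference no longer passed the test (limma adjusted p = 0.184). The TE libraries held 41.1 and 45.5 TPM against 219 and 294, a log2 difference of -2.53 (standard error 0.21, limma adjusted p = 0.000868). With Max MO the gene stayed at 194 to 242 TPM. Each Mcrs1 MO library was thus below every control and Max MO library. The ICM libraries kept more of the transcript than the TE libraries, and their values did not overlap, but the difference of 0.87 (standard error 0.21) between the lineages did not pass the test (limma adjusted p = 0.327).

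With Mcrs1 MO, no gene passed the test between ICM and TE. Of 11219 genes, 0 (0%) were called at a limma adjusted p under 0.05 and a difference of at least 2-fold, and the smallest adjusted p was 0.0765, while 756 genes had an unadjusted p under 0.05. Of those 756 genes, 615 were higher in the ICM libraries and 141 in the TE libraries, a split that became 360 and 264 with quantile normalization. In the same fit 193 genes (1.72%) were higher in the ICM and 135 (1.20%) higher in the TE of the control, and 398 (3.55%) and 503 (4.48%) with Max MO. These counts lean on single libraries, because 6 groups of 2 share an estimate of the spread. Without ICM control replicate 1 the Mcrs1 MO count became 12, without ICM control replicate 2 it was also 12, and in a fit of the 4 Mcrs1 MO libraries alone it was 36. The order of the arms turned in such fits, since the 4 control libraries alone gave 0 calls (1118 at an unadjusted p under 0.05), and limma array weights gave 66 with Mcrs1 MO and 0 in the control (1242 at an unadjusted p under 0.05). The control count of 328 became 2283 without ICM control replicate 1, 2 without TE control replicate 1 and 101 without TE control replicate 2, and between 53 and 188 without any single Max MO or Mcrs1 MO library. The Max MO count of 901 became 41 to 240 without any single Max MO library, 1825 and 1850 without ICM control replicate 1 or 2, and 574 without either TE Mcrs1 MO library. A difference between Mcrs1 MO and Max MO in the size of the ICM-TE contrast was called for 0 genes (0%) by limma, with 1415 at an unadjusted p under 0.05, and this count was 293 and 343 without ICM control replicate 1 or 2 and 399 in a fit of the 8 knockdown libraries alone.

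The size of the differences can be described without that shared spread. A gap was counted where the lowest library of a lineage lay at least 2-fold above the highest library of the other on the log2(TPM + 1) scale. With Mcrs1 MO 319 genes (2.84%) had such a gap with the ICM higher and 74 (0.660%) with the TE higher. The control had 491 (4.38%) and 436 (3.89%), and Max MO had 672 (5.99%) and 887 (7.91%). The gap was thus scarcer in both directions with Mcrs1 MO, and most of the shortfall was among genes higher in the TE. The standard deviation of the ICM-TE difference over genes was 0.66 with Mcrs1 MO, 1.09 in the control and 1.10 with Max MO. The control value was 1.56 without ICM control replicate 1 and 1.08 without replicate 2. For the difference between the 2 ICM libraries it was 0.82 with Mcrs1 MO, 1.56 in the control and 0.87 with Max MO. The control value of 1.09 thus also holds a wide spread between replicates. The median ICM-TE difference over all genes was 0.13 with Mcrs1 MO, -0.01 in the control and -0.03 with Max MO. Quantile normalization moved the Mcrs1 MO median to -0.02.

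The libraries themselves showed the same closeness. With Mcrs1 MO the Pearson correlation across genes was 0.946 between the ICM libraries, 0.969 between the TE libraries, and 0.940 to 0.949 between an ICM and a TE library. An ICM library was therefore as close to a TE library as to the other ICM library. With Max MO the pairs within a lineage reached 0.940 and 0.961 while pairs across lineages lay between 0.875 and 0.886. In the control, ICM replicate 1 was closer to the TE libraries (0.879 and 0.889) than to ICM replicate 2 (0.804).

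**Figure D1:**
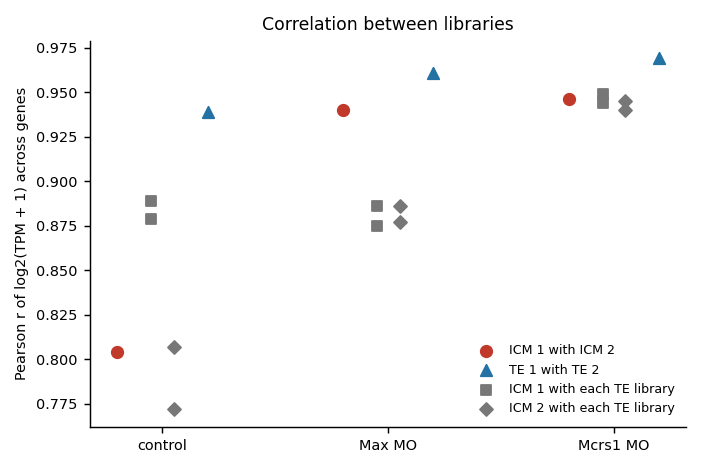
Pearson correlation of log2(TPM + 1) across the 11219 genes tested (vertical axis) for pairs of libraries within each arm (horizontal axis). Circles are the pair of ICM libraries, triangles the pair of TE libraries, and grey squares and diamonds each ICM library with each TE library; with Mcrs1 MO the grey points (0.940 to 0.949) lie beside the ICM pair (0.946), while with Max MO they lie below both pairs.

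The TE genes were nearly level between the libraries labelled ICM and TE. Cdx2, the homeobox factor that marks the TE (chromosome 5, 147300900 to 147307249), was at 28.6 and 17.1 TPM in the ICM and 31.4 and 20.3 TPM in the TE. The ICM and TE values overlapped, and the difference was -0.18 with a 95% confidence interval from -2.95 to 2.59 in the shared fit and a standard error of 0.36 among the 4 libraries alone. Its sign turned without ICM Mcrs1 MO replicate 2 (0.17) and without TE Mcrs1 MO replicate 1 (0.12). With Max MO, Cdx2 was at 3.25 and 3.77 TPM in the ICM and 22.8 and 30.8 TPM in the TE, which did not overlap. Eomes, a T-box factor of the TE, was at 35.8 and 30.3 TPM in the ICM and 37.6 and 39.8 in the TE, a difference of -0.22 (95% confidence interval -1.58 to 1.13). Gata3, which acts beside Cdx2, was at 457 and 400 TPM in the ICM and 504 and 429 in the TE, a difference of -0.12 (95% confidence interval -2.31 to 2.07). For both genes the ICM with Mcrs1 MO lay far above the ICM with Max MO, where Eomes was at 9.94 and 3.46 TPM and Gata3 at 97.7 and 72.7. Gata2 and Elf5, factors of the TE and its later stem cells, were higher in the libraries labelled ICM, but neither passed the test. Gata2 was at 41.4 and 39.2 TPM against 23.6 and 15.2, a difference of 1.05 (standard error 1.32, limma adjusted p = 0.955). Elf5 was at 5.89 and 6.97 TPM against 1.21 and 0.459, a difference of 2.05 (standard error 1.33, limma adjusted p = 0.87). Of the 13 tested TE factors, these 2 had no overlap with the ICM higher, and 2, Eomes and Id2, with the TE higher. The shares of all genes were 30.8% and 14.7%.

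The structural genes of the TE epithelium gave a similar reading. Krt8, a keratin of simple epithelia, was at 5008 and 3893 TPM in the ICM and 6780 and 7001 in the TE. Krt18, its partner, was at 6021 and 3701 TPM in the ICM and 7742 and 8096 in the TE. The keratin values did not overlap between lineages, with differences of -0.64 and -0.75 that did not pass the test (limma adjusted p = 0.973 and 0.984). In the ICM of Max MO embryos the same genes lay at 1510 and 3172 TPM (Krt8) and at 1097 and 2572 TPM (Krt18), against 9192 to 10866 TPM over both genes in the TE. Over the 28 members of the epithelium list that were tested, the median difference was -0.11 with Mcrs1 MO, -0.95 in the control and -1.83 with Max MO. Among them 0 had a 2-fold gap in favour of the TE with Mcrs1 MO, where 0.660% of all genes had one, against 19 with Max MO, where 7.91% had one, and 1 in the control. Without a gap size, 9 of the 28 had no overlap with the TE higher with Mcrs1 MO and 6 with the ICM higher, where 14.7% and 30.8% of all genes did so. Over the 13 tested TE factors the medians were -0.11, -2.00 and -1.63 in the same order, and the gap counts were 0, 0 and 7. The control values depend on which ICM control library is kept. The epithelium median was -1.61 without replicate 1 and -0.24 without replicate 2, and the factor median -3.35 and -0.23. Without replicate 1, 9 of the 13 factors and 17 of the 28 epithelium genes were called higher in the control TE, among 1352 genes (12.1%) called so and 931 (8.35%) called higher in the ICM. Without replicate 2 limma called 0 of either list higher in the TE. Far fewer of all genes were called so in that fit, so this 0 cannot set the lists apart from all genes. Each of these fits rests on a lone control ICM library.

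**Figure D2:**
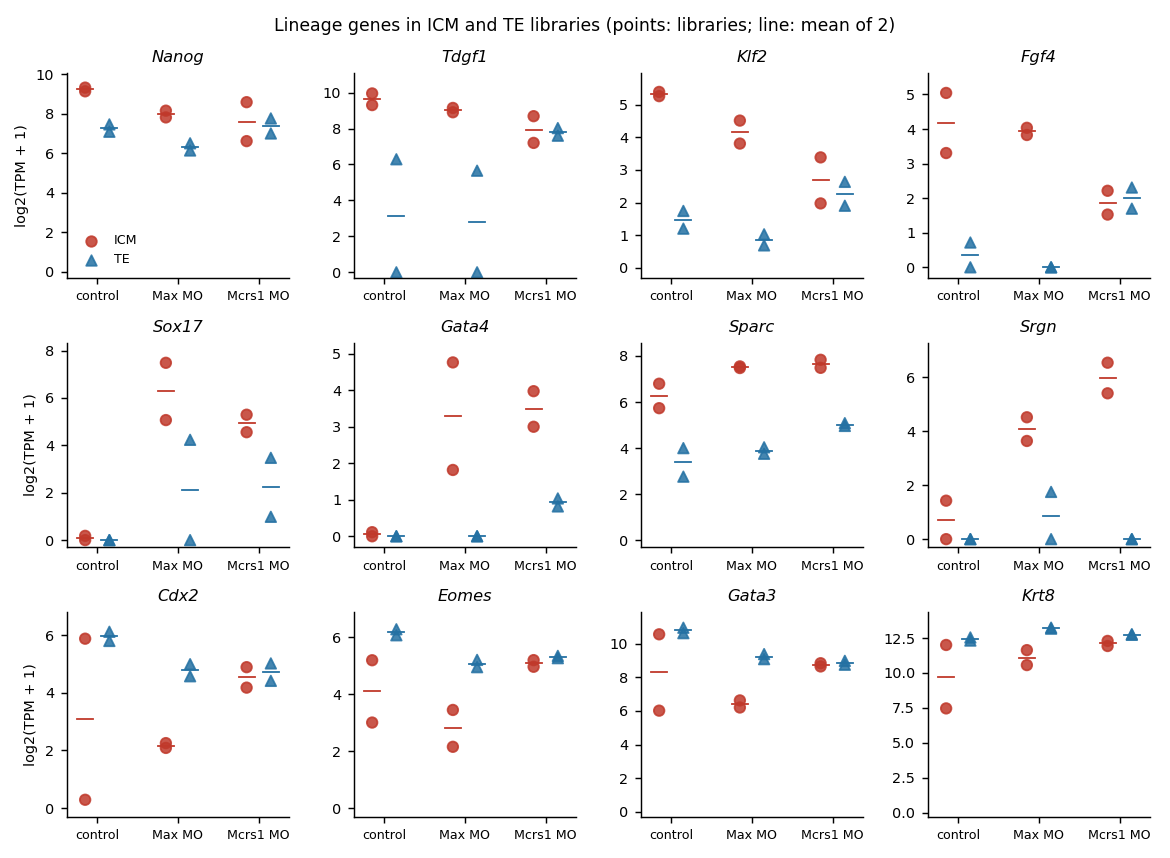
Levels of 12 lineage genes as log2(TPM + 1) (vertical axis) in the control, Max MO and Mcrs1 MO arms (horizontal axis), with circles for ICM libraries, triangles for TE libraries and a line at the mean of the 2 libraries. Rows show pluripotency genes, primitive endoderm genes and TE genes; with Mcrs1 MO the lineages lie together for Nanog, Tdgf1, Klf2, Fgf4, Cdx2, Eomes and Gata3 and apart for Sox17, Gata4, Sparc and Srgn.

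Several pluripotency genes were nearly level as well. Nanog, a factor that maintains the epiblast (chromosome 6, 122707489 to 122714633), was at 96.9 and 383 TPM in the ICM and 127 and 216 in the TE, so that the TE values lay between the ICM values. The Nanog difference of 0.22 (95% confidence interval -0.88 to 1.32) became -0.77 without ICM Mcrs1 MO replicate 2 and -0.16 without TE Mcrs1 MO replicate 1. In the control it was at 561 and 639 TPM in the ICM and 135 and 175 in the TE, and with Max MO at 224 and 284 against 69.5 and 89.7. Tdgf1, the Nodal co-receptor Cripto, was at 146 and 411 TPM in the ICM and 193 and 259 in the TE with Mcrs1 MO. A TE library of the control and of the Max MO arm each listed Tdgf1 at 0, and the others held 77.2 and 49.3 TPM. Spic, an Ets-family factor, was at 263 and 457 TPM in the ICM and 243 and 499 in the TE, against 16.5 and 210 TPM in the control TE and 2.68 and 21.3 in the Max MO TE. For Tdgf1 and Spic the lineages overlapped with Mcrs1 MO and did not overlap in the other arms.

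Genes whose ICM level was lower with Mcrs1 MO gave the same picture from the other side. Fgf4, the ligand that the epiblast sends to the primitive endoderm, was at 1.88 and 3.64 TPM in the ICM and 2.24 and 3.95 in the TE. The control ICM held 32.0 and 8.89 TPM of Fgf4 and the Max MO ICM held 15.4 and 13.2. Klf2, a naive pluripotency factor, was at 2.93 and 9.44 TPM in the ICM and 5.21 and 2.74 in the TE with Mcrs1 MO, and at 40.9 and 37.3 against 1.30 and 2.35 in the control. Both genes were called higher in the ICM in the control and with Max MO, with differences of 3.82 and 3.93 for Fgf4 (limma adjusted p = 0.0237 and 0.00902) and of 3.85 and 3.30 for Klf2 (limma adjusted p = 0.0149 and 0.0112). With Mcrs1 MO the differences were -0.13 and 0.41 (limma adjusted p = 0.996 and 0.965). Tested directly, neither gene's ICM-TE difference with Mcrs1 MO was called apart from that in the control (limma adjusted p = 0.411 for both). The same held against Max MO (limma adjusted p = 0.163 for Fgf4 and 0.218 for Klf2).

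Some pluripotency genes remained apart. Pou5f1, which encodes Oct4, was at 161 and 176 TPM in the ICM and 102 and 78.2 in the TE, a difference of 0.91 (standard error 0.24, limma adjusted p = 0.37) beside 1.45 in the control and 1.76 with Max MO. Gdf3, a ligand of the TGF-beta family, was at 38.7 and 70.6 TPM in the ICM and 22.4 and 21.1 in the TE, a difference of 1.23 against 3.16 in the control. Tcl1, a co-activator of Akt kinase, was at 92.0 and 138 TPM in the ICM and 32.3 and 31.7 in the TE, a difference of 1.78 against 5.74. Utf1, a chromatin-bound factor of pluripotent cells, was at 148 and 278 TPM in the ICM and 56.9 and 91.8 in the TE, a difference of 1.47 against 3.61. In all 4 genes the ICM and TE libraries did not overlap with Mcrs1 MO, and none passed the test there. Over the 25 tested genes of the epiblast and pluripotency list, the median difference was 0.22 with Mcrs1 MO, 1.38 in the control (1.71 without ICM control replicate 1) and 1.77 with Max MO. A 2-fold gap with the ICM higher was seen in 1, 11 and 15 of them, beside 2.84%, 4.38% and 5.99% of all genes. Without a gap size, 8 of the 25 had no overlap with the ICM higher and 3 with the TE higher, near the 30.8% and 14.7% of all genes that did so with Mcrs1 MO. Esrrb and Nodal did not reach the filter on low values.

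The primitive endoderm genes were the exception. Sox17, which directs endoderm fate (chromosome 1, 4490928 to 4497354), was at 38.2 and 22.5 TPM in the ICM and 10.1 and 0.977 in the TE, a difference of 2.70 (standard error 1.26, limma adjusted p = 0.743). Gata4, expressed in committed primitive endoderm, was at 6.99 and 14.7 TPM in the ICM and 1.05 and 0.762 in the TE, a difference of 2.56 (standard error 0.83, limma adjusted p = 0.54). Neither gene exceeded 0.133 TPM in a control library, whereas the Max MO ICM held 178 and 32.5 TPM of Sox17 and 26.1 and 2.52 of Gata4. Pdgfra, a receptor that marks primitive endoderm precursors, was at 11.4 and 15.9 TPM in the ICM and 5.41 and 1.77 in the TE. Gata6, which is present in precursors of both lineages, was at 29.6 and 26.9 TPM in the ICM and 23.2 and 21.3 in the TE, close to level. The ICM and TE values of these 4 genes did not overlap, and none passed the test. Of all genes, 30.8% had no overlap with the ICM higher. Foxa2 and Amn of the same list overlapped. Foxa2 was at 10.5 and 0.0625 TPM in the ICM and 1.67 and 0 in the TE, and Amn at 2.71 and 31 against 2.74 and 0.724.

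The clearest separation was among genes for the matrix that the primitive endoderm secretes. Srgn, the core protein of the proteoglycan serglycin (chromosome 10, 62494428 to 62507755), was at 41.6 and 92.6 TPM in the ICM and listed at 0 in both TE libraries. Its difference of 5.98 (standard error 0.75) had the smallest adjusted p of the comparison (limma adjusted p = 0.0765). Sparc, a matrix-binding glycoprotein (chromosome 11, 55394159 to 55420080), was at 178 and 227 TPM in the ICM and 30.2 and 32.9 in the TE, a difference of 2.64 (standard error 0.43, limma adjusted p = 0.149). Lama1, the laminin alpha chain of the first basement membranes (chromosome 17, 67697265 to 67822645), was at 17.1 and 24.8 TPM in the ICM and 1.35 and 0.963 in the TE, a difference of 3.33 (standard error 0.55, limma adjusted p = 0.149). Serpinh1, the collagen chaperone Hsp47, was at 29.7 and 22.7 TPM in the ICM and 0.870 and 1.99 in the TE. Col4a1, a type IV collagen chain, was at 16.9 and 23.4 TPM in the ICM and 3.37 and 4.89 in the TE, a difference of 2.04 beside 3.27 in the control and 3.80 with Max MO. All 9 matrix and secretory members of the list, among them also Col4a2, Lamb1, Lamc1 and P4ha2, had no overlap with the ICM higher. Their differences ran from 0.74 to 5.98, and 7 of them had a 2-fold gap. The shares of all genes were 30.8% without overlap and 2.84% with a gap. Over all 20 tested genes of the list the counts were 16 and 11. The list was chosen with earlier results of these data known and holds Srgn. The counts of this part of it are therefore a description and support nothing. The median of the 9 was 2.04 with Mcrs1 MO, 2.04 in the control and 3.21 with Max MO. Behind the equal medians single genes moved both ways. From the control to Mcrs1 MO, Col4a2 went from 3.73 to 1.73, Lamc1 from 0.30 to 1.78 and Srgn from 0.71 to 5.98. Control values also depend on the ICM library kept, with Serpinh1 at 3.35 without ICM control replicate 1 and 0.73 without replicate 2.

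Over the 20 tested genes of the primitive endoderm list (Sox7 was below the filter), the median difference with Mcrs1 MO was 1.85, against 0.13 for all genes, 0.50 for the list in the control and 2.18 with Max MO. The control median was 0.15 without ICM control replicate 1 and 0.73 without replicate 2. A 2-fold gap with the ICM higher was seen in 11 of the 20 with Mcrs1 MO, where 2.84% of all genes had one, and in 6 with the control and 10 with Max MO, where 4.38% and 5.99% of all genes had one. Without a gap size, 16 of the 20 had no overlap with the ICM higher (30.8% of all genes). Dab2 and Lrp2 went the other way. Dab2, an endocytic adaptor, was at 434 and 416 TPM in the ICM and 602 and 611 in the TE, and Lrp2, an endocytic receptor, at 19.9 and 20.4 against 31.3 and 45.3. In the control both were also abundant in the TE, with Dab2 at 2072 and 1201 TPM and Lrp2 at 66.7 and 74.0, and Lrp2 was called higher in the TE in the control and with Max MO. The list median with Mcrs1 MO lay between 1.62 and 2.38 when any single library was left out.

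**Figure D3:**
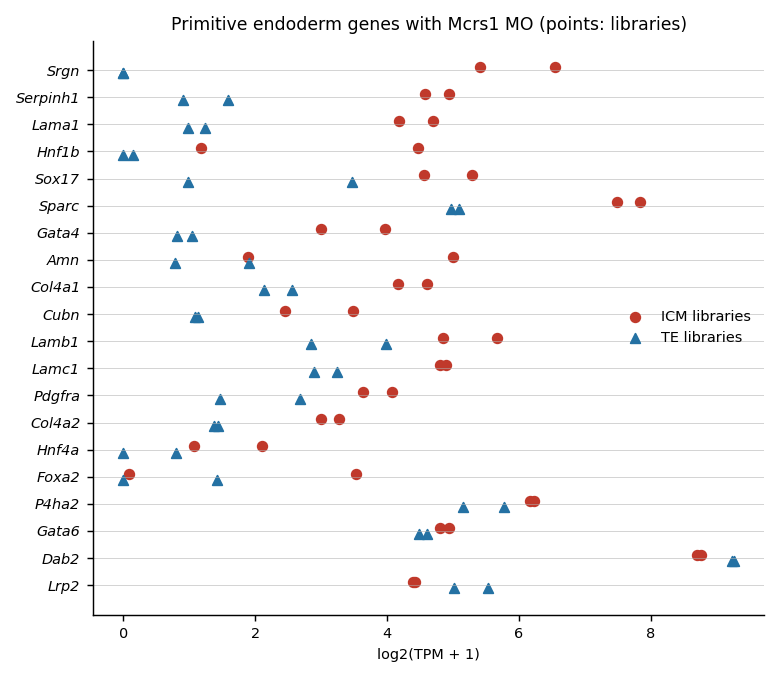
Levels of the 20 tested primitive endoderm genes with Mcrs1 MO as log2(TPM + 1) (horizontal axis), 1 gene per line in the order of the ICM-TE difference, with circles for the 2 ICM libraries and triangles for the 2 TE libraries. In 16 genes both circles lie to the right of both triangles, and in Dab2 and Lrp2 to the left.

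**Figure D4:**
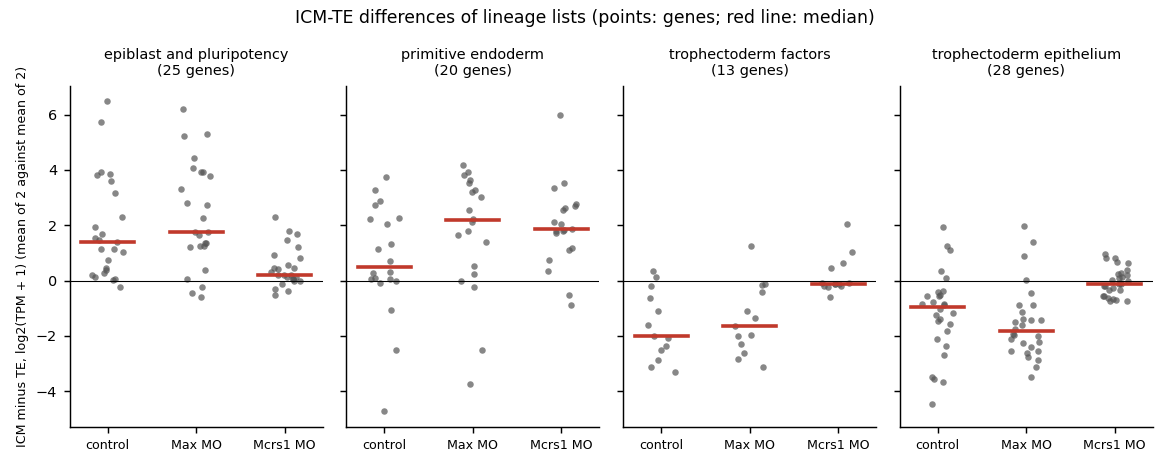
ICM minus TE difference on the log2(TPM + 1) scale (vertical axis) for the tested genes of 4 lineage lists in each arm (horizontal axis), with a point per gene and a red line at the list median. With Mcrs1 MO the medians of the epiblast (0.22) and both TE lists (-0.11 and -0.11) lie near 0, and that of the primitive endoderm list is 1.85.

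Genes chosen in other libraries gave a wider view of what persisted. The 398 genes called higher in the ICM with Max MO, a comparison that shares no library with Mcrs1 MO but shares its spread in the fit, had a median difference of 0.65 with Mcrs1 MO and 0.88 in the control. With Mcrs1 MO 87.4% of them were higher in the ICM and 32.7% by at least 2-fold, against 61.1% and 9.19% of all genes. In the control the shares were 86.7% and 46.2%, against 49.0% and 13.1% of all genes. The 503 genes called higher in the TE with Max MO had a median difference of -0.16 with Mcrs1 MO and -0.56 in the control. With Mcrs1 MO 68.0% of them were higher in the TE and 4.17% by at least 2-fold, beside 38.6% and 3.03% of all genes. In the control these shares were 86.1% and 26.8%, beside 50.6% and 15.1%. Most of these genes thus kept their direction with Mcrs1 MO, while 2-fold differences on the TE side were about as rare among them as among all genes. The 193 genes called higher in the control ICM had a median of 0.73 with Mcrs1 MO and 1.47 with Max MO, and the 135 called higher in the control TE had medians of -0.23 and -0.86. For the control calls made without ICM control replicate 1, the medians with Mcrs1 MO were 0.50 on the ICM side and -0.13 on the TE side.

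**Figure D5:**
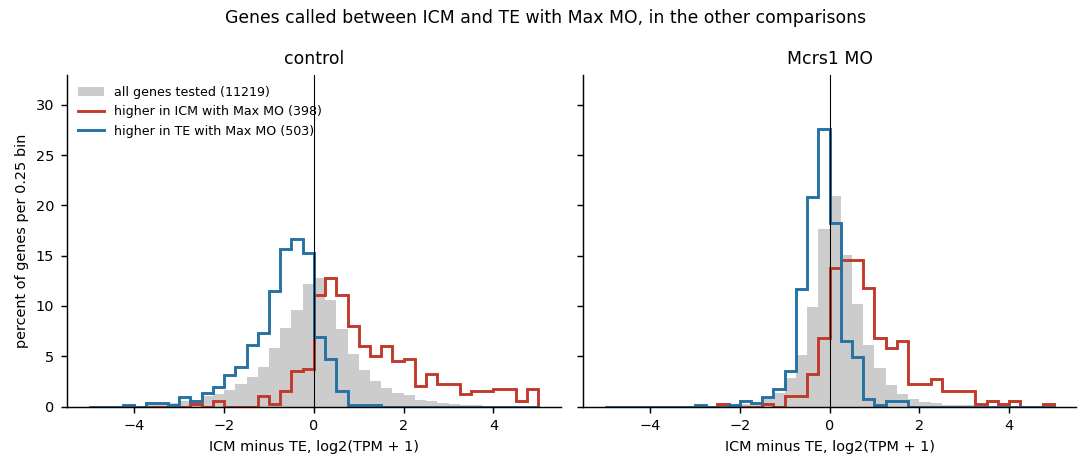
Share of genes (vertical axis, percent per bin of 0.25) by ICM minus TE difference on the log2(TPM + 1) scale (horizontal axis, values beyond -5 and 5 placed in the end bins) in the control (left) and with Mcrs1 MO (right). Red outlines are the 398 genes called higher in the ICM with Max MO, blue outlines the 503 called higher in the TE, and grey all 11219 genes; with Mcrs1 MO the blue outline centres at -0.16 and the red at 0.65.

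A list from outside the morpholino experiment was small. Between 6 ICM and 6 TE libraries of SCNT blastocysts, limma called 18 of 10173 genes (0.177%), of which 11 were higher in the ICM and 7 in the TE. The 11 had a median of 0.78 with Mcrs1 MO, 2.82 in the control and 2.73 with Max MO, and the 7 had medians of -0.48, -2.22 and -1.92. Among them the osteopontin gene Spp1 differed by 1.10 with Mcrs1 MO against 4.87 in the control and 6.26 with Max MO. The annexin Anxa3 differed by -1.10 with Mcrs1 MO against -4.11 and -2.46. Spic was at -0.01 with Mcrs1 MO against 3.94 and 5.24. The number of such genes was between 6 and 64 under other settings, so these medians rest on few genes. The SCNT libraries were also unlike one another. Reference genes held 74.6 to 82.8% of the TPM total in replicates 1 to 3 and 89.2 to 90.9% in replicates 4 to 6. The fit had no term for this split.

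The 12 genes that passed the test with Mcrs1 MO when ICM control replicate 1 was left out (0.108% of those tested) were the same 12 as without replicate 2, and all were among the 36 (0.336%) of the fit on the 4 libraries alone. All of these fits compare the same 4 Mcrs1 MO libraries. Leaving out either ICM control library removes the spread of that pair, so the shared 12 genes are not a second test. These 12 genes are named here after their values were seen. Srgn, Sparc and Lama1 were among them. Rcn1, a calcium-binding protein of the endoplasmic reticulum, was at 61.2 and 51.8 TPM in the ICM and 3.79 and 2.26 in the TE, and it was called in the control and with Max MO too. Maged1, a MAGE-family protein, was at 149 and 252 TPM in the ICM and 39.2 and 31.8 in the TE. Nt5c3b, a cytosolic nucleotidase, was at 116 and 103 TPM against 17.9 and 23.9, and its difference of 2.34 (standard error 0.32, limma adjusted p = 0.0805) was close to 2.57 in the control and 2.85 with Max MO. Rcn1, Maged1 and Nt5c3b thus differed by at least 2.34 in all arms. Srgn and Lama1 differed by 0.71 and 1.32 in the control and were not called there. With Max MO, however, both were called higher in the ICM, by 3.21 and 3.51 (limma adjusted p = 0.0267 and 0.00679). Nedd4, a ubiquitin ligase, and Smn1, an assembly factor of spliceosomal particles, differed by 2.11 and 1.44 with Mcrs1 MO and by 0.08 and 0.10 in the control. Nedd4 was at 42.5 and 69.7 TPM in the ICM and 12.6 and 11.1 in the TE with Mcrs1 MO. Ung and Nup62cl were also among the genes higher in the ICM.

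On the TE side of those 12 genes stood Ube2c, the ubiquitin-conjugating enzyme that drives mitotic exit. It was at 285 and 255 TPM in the ICM and 755 and 892 in the TE, a difference of -1.60 (standard error 0.24, limma adjusted p = 0.143). The 4-library fit called 6 genes higher in the TE, namely Ube2c, Ccnb1, Kpna2, Nusap1, Slc51b and Fdft1, which are also named after their values were seen. Ccnb1, cyclin B1, was at 872 and 781 TPM in the ICM and 1633 and 1840 in the TE. Nusap1, a spindle protein, was at 87.0 and 65.7 TPM against 177 and 254, and Kpna2, a nuclear import receptor, at 983 and 833 against 2178 and 2739. Slc51b, a subunit of an organic solute transporter, was at 2.63 and 4.24 TPM against 33.3 and 25.4. For Ccnb1 and Nusap1 the differences of -1.07 and -1.48 stood beside -0.88 and -1.29 in the control and -0.88 and -1.58 with Max MO, whereas Ube2c differed by -0.05 with Max MO.

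Whether the ICM-TE difference itself differed between Mcrs1 MO and the control was tested by an interaction term. Of 11219 genes 0 (0%) passed, with 972 at an unadjusted p under 0.05 and a smallest adjusted p of 0.281. Of the 12 genes with the smallest p, 6 in each direction, all but Tcte2 were called between the lineages in the control. The control difference is part of the interaction, so this choice favours such genes and their calls support nothing. None was called with Mcrs1 MO, where no gene at all passed. Panx1, a membrane channel, was listed at 0 in both control ICM libraries and at 14.9 and 13.4 TPM in the control TE, against 23.8 and 20.3 in the ICM and 24.3 and 22.1 in the TE with Mcrs1 MO. Rpusd1, Prom1, Cebpa, Snupn and Prmt2 were likewise called higher in the TE in the control, with Cebpa, a transcription factor, listed at 0 in the control ICM and at 6.65 and 4.44 TPM in the ICM with Mcrs1 MO. In the other direction the securin gene Pttg1 was at 380 and 712 TPM in the control ICM and 106 and 68.1 in the control TE. With Mcrs1 MO it was at 358 and 457 TPM in the ICM and 326 and 290 in the TE. Rgcc, a regulator of the cell cycle, was listed at 0 and at 0.985 TPM in the control TE and at 10.8 and 15.5 with Mcrs1 MO. Tcte2 was listed at 0 in both ICM libraries with Mcrs1 MO and at 3.67 and 3.04 TPM in the TE, and Rec8, Gm2016 and Pcolce completed the 6 genes in that direction. For all 12 genes the interaction was not called (limma adjusted p from 0.281 to 0.378).

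Without ICM control replicate 1 the interaction was called for 840 genes, 705 (6.33%) with a difference shifted toward the ICM and 135 (1.21%) shifted toward the TE. That fit has a lone control ICM library, replicate 2, which is assumed to vary like the other groups. The genes shifted toward the ICM held 8 of the 13 TE factors and 13 of the 28 epithelium genes, and without ICM control replicate 2 limma called 0 of them. The shift of Cdx2 was 5.49 without replicate 1 and -0.10 without replicate 2, and that of Gata3 was 4.65 and 0.11, so both rest on which ICM control library is kept. Those shifted toward the TE included 4 of the 24 pluripotency genes tested there, namely Klf2, Fgf4, Gdf3 and Tcl1, with shifts from -4.59 to -2.44. Without replicate 2 these 4 shifted by -3.51, -4.81, -1.42 and -3.33, and none was called. Srgn shifted by 5.98 without replicate 1 (limma adjusted p = 0.0067) and by 4.55 without replicate 2 (limma adjusted p = 0.107), whereas Sparc shifted by -0.78 and Lama1 by 1.65 without replicate 1, which were not called. In all, the interaction was called for 14 genes without ICM control replicate 2. The control libraries also held more Rn45s than the Mcrs1 MO libraries, as given above, and its part in these results was not tested.

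In the signalling and chromatin lists no member passed the test with Mcrs1 MO, where limma called 0 genes in all. Of the 13 tested genes of the FGF and ERK list, 7 had no overlap with the ICM higher and 1 with the TE higher, where 30.8% and 14.7% of all genes did so. Etv5, a target of FGF signalling, was at 22.0 and 37.7 TPM in the ICM and 8.00 and 9.28 in the TE, a difference of 1.63 against 4.82 in the control and 4.87 with Max MO. Of the 18 tested Hippo genes 6 and 4 had no overlap in these directions, and the list median was 0.14. In the list of Nodal, BMP and Wnt genes, Dkk1, a secreted Wnt inhibitor, was at 32.7 and 44.5 TPM in the ICM and 8.69 and 1.42 in the TE, and did not exceed 0.572 TPM in the control. The 9 NSL genes had a median of 0.23 and the 15 INO80 genes one of 0.30, and Mcrs1, a member of both, had the largest difference of either list. No overlap with the ICM higher was seen in 6 of the INO80 genes, 2 of the NSL genes and 11 of the 29 chromatin genes, and with the TE higher in 1, 0 and 2. Among 29 tested chromatin writers and erasers the median was 0.28, and Dnmt3b, a de novo DNA methyltransferase, was at 59.4 and 100 TPM in the ICM and 38.4 and 37.9 in the TE with Mcrs1 MO, while in the control and with Max MO the TE libraries lay above the ICM libraries. None of these Dnmt3b differences passed the test. Of the 15 tested p53 response genes 13 had a difference below 0, as had 38.6% of all genes, and none passed the test. Their median was -0.33 with Mcrs1 MO, -0.88 with Max MO and -0.00 in the control, where it was -0.48 and 0.84 without ICM control replicate 1 or 2. Quantile normalization lowered these medians to 0.10, 0.09, 0.08 and -0.42 for the NSL, INO80, chromatin and p53 lists, and to -0.09 for the Hippo list, which changes its sign.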

How the data were processed

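Single-library gene tables of ICM and TE from fertilized blastocysts (12 libraries, 2 per group) and SCNT blastocysts (12 libraries) were used. Per the submitters' processing notes and the study's methods, the authors used cutadapt 1.16 for trimming, HISAT2 for alignment (mm10) and StringTie for quantification. The authors deposited coverage, FPKM and TPM per gene. The deposited TPM column lists assembled loci, which sum to 1000000, beside 24421 reference genes, and gene values were read on that scale. Deposited FPKM and coverage served only to estimate aligned gigabases. The tables give no counts, so no count test was run.

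TPM was summed per reference gene symbol. log2(TPM + 1) was fitted with limma 3.58.1 (lmFit, eBayes with a trend) in R 4.3.3 over 11219 genes whose TPM averaged 1 or more in these 12 libraries, with 6 groups sharing a spread. Genes were called at a Benjamini-Hochberg adjusted p under 0.05 over all genes and at least 2-fold. Tables and figures used Python 3.11.15, pandas 2.3.3 and matplotlib 3.10.9. The fit was tested on simulated data.

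Gene lists, members and alternatives were chosen with earlier results of these data known. Named genes were Mcrs1, list members (lineage markers, called members, main factors), and the 6 genes per direction with the smallest interaction p. Rules for genes called with Mcrs1 MO gave none. The study calls the 2 libraries of a group biological replicates, and the labels do not tie them to separate embryos, so p-values measure the spread between these libraries. An exact permutation test of 2 against 2 libraries cannot go below 0.333, so none was run. The alternatives were other pseudocounts, filters, scalings, row sums, library subsets, a replicate block, single libraries left out and array weights. Some single-gene results are not reported here.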

Additional observations from a re-analysis of the deposited data

How the results depend on the processing

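The 0 genes called between ICM and TE with Mcrs1 MO stayed 0 with a pseudocount of 0.1, a mean TPM of at least 5, quantile normalization, TPM rescaled over reference genes and the largest row of a gene. The count was 10 with no filter on low values, 36 with only the compared groups and 66 with array weights, and ranged from 0 to 12 when single libraries were left out. The control count of 328 was 152 with no filter, 0 with only the compared groups, 0 with array weights and 2 to 2283 with single libraries left out. The Max MO count of 901 was 456 with no filter, 1429 with only the compared groups, 1752 with array weights and 41 to 1850 with single libraries left out. The interaction of Mcrs1 MO with control gave 1 gene with a pseudocount of 0.1, 24 with no filter and 0 to 840 with single libraries left out. Mcrs1 MO against Max MO gave 32 with no filter, 399 with only the compared groups, 381 with array weights and 0 to 343 with single libraries left out. The number called the same way with Mcrs1 MO and in the control, 0 in the fit reported, was 1 with no filter and 0 to 7 with single libraries left out. SCNT calls were 6 with a pseudocount of 0.1, and 64 both with quantile normalization and in replicates 4 to 6 alone. Array weights, the Max MO contrast, the list medians and the SCNT settings were added after the data were seen.

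The primitive endoderm median of 1.85 was 2.36 with a pseudocount of 0.1 and 1.62 to 2.38 with single libraries left out. The epiblast median ranged from 0.07 to 0.72 and that of the TE factors from -0.24 to 0.11 with single libraries left out. Of 67 gene differences followed, 10 changed sign in some setting, all when an Mcrs1 MO library was left out. Each group has its own mean in the fit. Leaving out a control or Max MO library therefore cannot move an ICM-TE difference with Mcrs1 MO, and among these fits that outcome was fixed in advance. With single libraries left out Nanog ranged from -0.77 to 1.21, Cdx2 from -0.53 to 0.17, Tdgf1 from -0.61 to 0.88, Spic from -0.52 to 0.51, Klf2 from -0.29 to 1.11, Fgf4 from -0.47 to 0.21, Panx1 from -0.18 to 0.04, Prmt2 from -0.22 to 1.01, Gm2016 from -1.49 to 0.22 and Pcolce from -1.62 to 0.00. The cause of these shifts was not tested.

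The labels do not say that ICM and TE libraries of the same number came from the same embryos. Their replicate differences correlated across genes by 0.128 in the control, -0.0216 with Max MO and -0.00887 with Mcrs1 MO. With the replicate number as a block, 0 genes were called with Mcrs1 MO, 362 in the control, 901 with Max MO and 0 for the interaction. The depth in reads is unknown, so a gene listed at 0 TPM may be a missed one. Of 1400 gene values, 1322 kept their direction and side of the threshold, and 61 came to pass it. The count is no measure of how firm the values are. No gene passed with Mcrs1 MO to begin with, and several alternatives cannot move a difference within that arm. The ICM knockdown of Mcrs1 did not pass with only the compared groups.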
